A study of Mus musculus with 6 samples.

Results

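Mouse genes named for lying on the strand opposite another gene carry that gene's symbol followed by "os". Of all gene rows counted by RNA sequencing, 186 had a symbol of this form, 159 of these had a row for the partner gene, and 67 also reached 50 counts summed over the 6 libraries. These 67 rows, called antisense members here, and their 66 distinct partners are described below. Lrp8 is the partner of both Lrp8os2 and Lrp8os3. The members were thus chosen by symbol and by summed counts, of which 26768 came from Hes1 KO libraries and 7178 from the shallower WT libraries. The contrast itself was not used, but the 50 counts were reached in Hes1 KO libraries alone by 26 members, in WT libraries alone by 6, in each of the 2 groups by itself by 24, and only when both groups were summed by 11.

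The study compared libraries of C57BL/6 mice whose labels give the cells as bone marrow MSC (mesenchymal stromal cells), 3 from Hes1 KO mice and 3 from wild-type (WT) mice. Hes1 KO mice came from a cross of heterozygous Hes1 fl/+ mice with Prx1Cre mice, in which the Prx1 promoter drives Cre in early limb bud mesenchyme, so that deletion is directed to that lineage and its descendants. The labels name the animals knockouts while the protocols name a heterozygous floxed allele, and they do not give the number of deleted alleles, the animals' age, pooling, or whether the WT mice carried Cre or a floxed allele. No drug or other treatment is given for either group. Hes1 encodes a transcriptional repressor that acts downstream of Notch receptors.

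An antisense transcript is read from the strand facing a partner gene. Some start within or near the partner's promoter and run away from it, and others start inside the partner's body and run back across its exons or introns. Most are noncoding and low in abundance. Single cases are known to change the chromatin, splicing or stability of the partner's RNA, and others act far from it or encode a protein of their own.

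The name did not hold in full for the 67 rows. By the RefSeq gene table, 59 members were long noncoding RNAs (lncRNAs), 6 were protein-coding genes, 1 (Fbxl12os) was a transcribed pseudogene and 1 (Frmd8os) was not in the table. In the GENCODE M21 annotation of GRCm38, 64 members could be placed with their partner, and all 64 lay on the opposite strand. The spans of 48 overlapped the partner's span, 24 of them wholly inside it, and 23 had a 5′ end within 1 kb of the partner's 5′ end. At least 1 exonic base was shared with a partner exon by 40 members, and more than 50% of exonic bases by 3. The libraries were made with a kit that keeps the strand, but the sources used here do not give the strand setting of the counting. Reads from a member and from the facing partner can therefore not be told apart where a member's exons overlap the partner's exons or introns.

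Promoter windows, running from 250 bases before to 50 bases after a gene's start, are shown for the pairs on which the results below turn. The sequences are from RefSeq on GRCm38.p6, read 5′ to 3′ on the gene's own strand. Bach2os and Bach2 are the pair with the largest shared decrease. Bach2os starts inside Bach2, on the minus strand (chr4:32571613-32571912), far from the plus-strand start of Bach2 itself (chr4:32417185-32417484). Capitals in Bach2 mark 2 matches to the N box CACNAG, a motif that Hes1 binds.
Bach2os: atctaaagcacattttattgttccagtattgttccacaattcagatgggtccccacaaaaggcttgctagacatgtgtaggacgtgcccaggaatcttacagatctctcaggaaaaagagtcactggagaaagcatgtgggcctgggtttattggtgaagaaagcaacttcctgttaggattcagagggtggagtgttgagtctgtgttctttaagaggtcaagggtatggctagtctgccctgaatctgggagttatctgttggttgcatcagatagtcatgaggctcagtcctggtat
Bach2: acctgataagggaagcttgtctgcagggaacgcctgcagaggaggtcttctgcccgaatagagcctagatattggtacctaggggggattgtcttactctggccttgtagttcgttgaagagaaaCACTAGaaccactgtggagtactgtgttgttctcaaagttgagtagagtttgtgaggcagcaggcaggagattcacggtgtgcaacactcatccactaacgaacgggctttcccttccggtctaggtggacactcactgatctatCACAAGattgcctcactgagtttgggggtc
Ptgs2os2 (chr1:150164899-150165198, minus strand) is shown because it had counts in every Hes1 KO library and none in WT libraries.
Ptgs2os2: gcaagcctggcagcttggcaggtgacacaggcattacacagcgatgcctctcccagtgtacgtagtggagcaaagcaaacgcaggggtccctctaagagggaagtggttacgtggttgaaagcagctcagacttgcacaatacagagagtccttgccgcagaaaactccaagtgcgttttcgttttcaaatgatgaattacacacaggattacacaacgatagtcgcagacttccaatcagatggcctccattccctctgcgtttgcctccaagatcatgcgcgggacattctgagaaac
Pigbos1 (chr9:73039468-73039767, plus strand) and Pigb (chr9:73039650-73039949, minus strand) are shown because they face away from each other from starts 19 bases apart. Capitals mark the 118 bases their windows share, which read as the reverse complement of each other.
Pigbos1: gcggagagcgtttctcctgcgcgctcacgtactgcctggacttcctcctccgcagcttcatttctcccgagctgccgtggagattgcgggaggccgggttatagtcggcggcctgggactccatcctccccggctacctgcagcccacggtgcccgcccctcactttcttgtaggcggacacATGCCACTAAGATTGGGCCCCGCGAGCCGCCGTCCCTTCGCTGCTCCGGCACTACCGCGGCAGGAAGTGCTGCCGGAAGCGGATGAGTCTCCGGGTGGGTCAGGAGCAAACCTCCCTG
Pigb: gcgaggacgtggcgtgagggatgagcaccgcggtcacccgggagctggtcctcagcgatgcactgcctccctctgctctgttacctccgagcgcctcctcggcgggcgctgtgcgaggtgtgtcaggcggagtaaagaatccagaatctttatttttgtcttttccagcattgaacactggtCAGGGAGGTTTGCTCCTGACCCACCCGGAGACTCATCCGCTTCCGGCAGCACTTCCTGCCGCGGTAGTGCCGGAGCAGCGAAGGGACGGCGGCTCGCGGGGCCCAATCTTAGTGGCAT
Of the members, 55 had at least 1 window in the RefSeq table, as did 56 of the 66 partners. The N box CACNAG, searched on both strands, was present in 30% of the 80 member windows, against 42.5% of all 32851 mouse windows of this length. The related class C site CACGNG was present in 20% of member windows, against 27.5% of all windows. The windows of Bach2os, Ptgs2os2, Pigbos1 and Pigb held neither set of letters. In 15 of the 49 pairs with a window for both genes, the windows shared bases.

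The libraries differed in depth and makeup. Hes1 KO libraries held 20563116 to 22131465 counts, while WT replicates 1, 2 and 3 held 66167, 5812598 and 12109170. WT replicate 1 detected 11 of the 67 members and is left out of the comparison below, which has 3 Hes1 KO and 2 WT libraries. The labels do not say whether the libraries of a group are separate animals, so the p-values speak only of the spread between libraries. Hes1 itself stood at 6.63, 9.87 and 10.0 CPM (counts scaled to library size and TMM factor) in Hes1 KO libraries, against 39.2 and 64.1 CPM in WT libraries. The groups did not overlap, and Hes1 fell (log2 fold change -2.55, SE 0.31, edgeR quasi-likelihood test with Benjamini-Hochberg adjustment, adjusted p = 0.0294). The stromal label was not borne out by its defining markers: 11 of them together took at most 0.004% of the counts of any library, and Prrx1 had 2, 0 and 1 counts in Hes1 KO libraries and 0, 1 and 0 in WT libraries. Blood cell markers were abundant. Neutrophil markers took 4.82% to 13.0% of counts in Hes1 KO libraries and 0.0356% to 1.5% in WT libraries, B cell markers 0.105% to 0.176% and 0.0227% to 0.586%, and erythroid markers 0.00399% to 0.311% and 0% to 42.4%, the highest being WT replicate 3. In such bulk samples, fewer cells of a type and less RNA per cell cannot be told apart.

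Of the 66 members that passed the filter on low counts, 10 fell in Hes1 KO libraries and 3 rose at an adjusted p under 0.05 (edgeR quasi-likelihood test, Benjamini-Hochberg over all 16190 genes). That is 15.2% and 4.55% of the members tested, against a background of 8.09% of all genes that fell and 7.44% that rose, and 19.7% in either direction against 15.5%. The median log2 fold change of the members was -0.55, with 45 lower and 21 higher, while the median over all genes was 0.02. Among the 60 tested members that are not protein-coding, 10 fell (16.7%) and 2 rose (3.33%), with a median of -0.74. Other lncRNAs in the RefSeq table were near these shares, with 17.7% that fell, 1.67% that rose and a median of -1.04. Pitpnm2os2 did not pass the filter, with 0.323, 0.0897 and 0.354 CPM in Hes1 KO libraries and 3.79 and 0.93 CPM in WT libraries. The groups did not overlap for 38 members (57.6%), against 55.7% of all genes. Hes1 KO libraries lay below WT libraries in 27 members (40.9%, background 24.5%) and above them in 11 (16.7%, background 31.2%). The highest value was in WT replicate 2 for 27 of the 67 members and in WT replicate 3 for 22 of the 67. Both are larger shares than the 27.8% and 24.5% of all genes. The calls rest on 5 libraries: with all 6 no gene passed, 12 of 57 members had an unadjusted p under 0.05 (against 14.9% of all genes, 6.79% higher and 8.12% lower), and the smallest adjusted p of a member was 0.310. Leaving out any 1 of the 3 Hes1 KO libraries also left no gene passing. Without WT replicate 2, 14 members fell and 6 rose (30.3% of those tested, against 29.0% of all genes), and without WT replicate 3, 21 fell and 3 rose (35.8% against 35.5%). Each of these fits has a single WT library, which is assumed to vary as the Hes1 KO libraries do. The 50-count rule touches the calls as well. All 4 calls among the 6 members that reached 50 counts in WT libraries alone were of members that fell (Pard3bos1, Slain1os, Nckap5los and Bcas3os1), and the 1 call among the 26 that reached it in Hes1 KO libraries alone was of a member that rose (Ptgs2os2). These members entered through the group in which they are high, so their direction is no independent support. Among the 24 that reached it in each group by itself, 4 fell (Bach2os, Nr6a1os, Arhgap27os3 and Ino80dos) and 2 rose (Zeb2os and Pigbos1), with a median log2 fold change of -0.41.

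The members were then divided by position in GENCODE M21. Of the 61 members that are not protein-coding, 29 start inside the partner's span more than 1 kb from its start, 19 have a 5′ end within 1 kb of the partner's, 10 start outside the partner at a greater distance, and 3 (Stk35os1, Ggnbp2os and Rbfaos) could not be placed. Among the 28 tested members that start inside their partner, 9 fell (32.1%, against 8.09% of all genes) and 1 rose (3.57%, against 7.44%). In this group 22 were lower, with a median log2 fold change of -1.88. Of the 9, 4 (Pard3bos1, Slain1os, Nckap5los and Bcas3os1) became members through WT counts alone, so their direction is no independent support. Peak1os, which did not pass, entered the same way. The others that fell were Bach2os, Nr6a1os, Zmiz1os1, Arhgap27os3 and Ino80dos. Further members of the group, none of which passed, entered through Hes1 KO counts alone. This median and the values given below for the group include all of them. Of the 19 members with a near start, 1 fell (5.26%, below the share of all genes), none rose and 12 were lower, with a median of -0.37. No member fell and 1 rose (10%) among the 10 that start elsewhere, with a median of -0.48. Of the 6 protein-coding members, 1 rose (16.7%), none fell and 5 were higher, with a median of 0.90. Of those placed inside the partner, 2 (Lrp8os2 and Arhgap27os3) have a RefSeq promoter window that shares bases with a window of the partner, so that the annotations differ on where they start. Without both, 8 of 26 fell, 1 rose and 20 were lower, with a median of -1.88. The difference between these position groups was not tested, since they were drawn up with the values known.

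**Figure D1:**
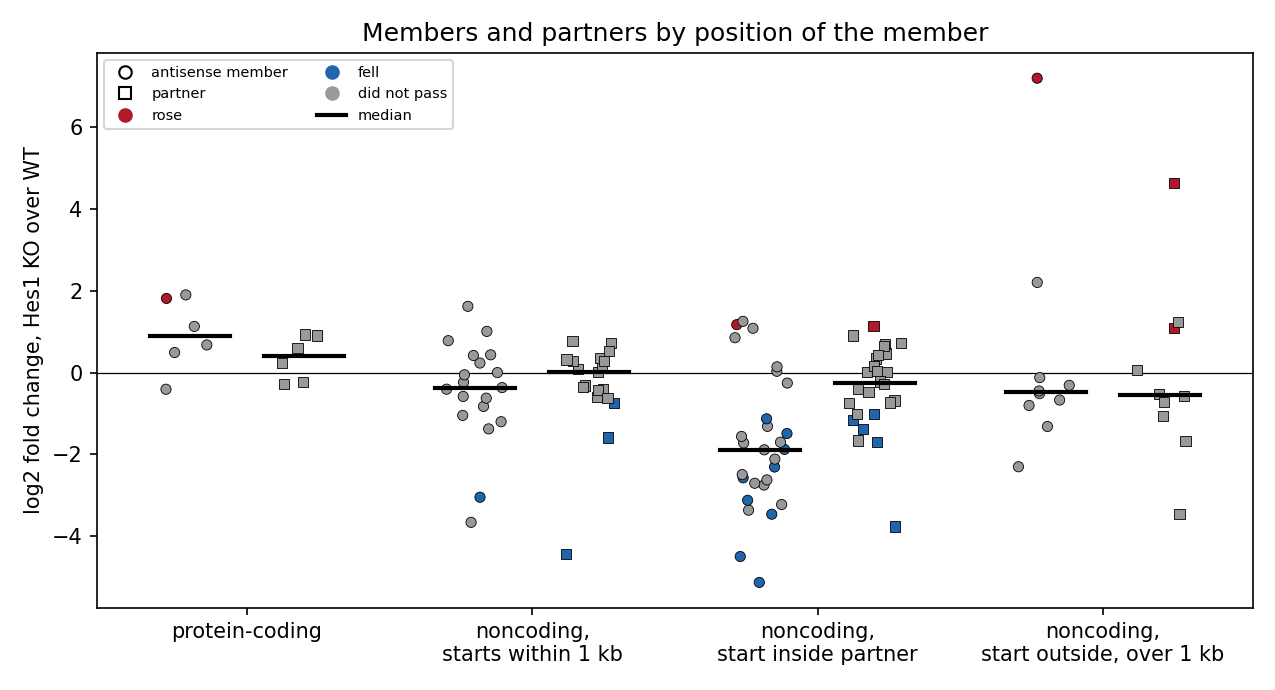
Log2 fold change (Hes1 KO over WT, y axis) of each antisense member (circles) and partner (squares) by the position of the member, with medians as black bars, genes that rose in red, genes that fell in blue and genes that did not pass in grey. Members that start inside their partner have a median of -1.88, with the median of their partners at -0.25.

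The summed level of the 29 members that start inside their partner was 58.2, 66.3 and 59.5 CPM in Hes1 KO libraries, against 192 and 95.9 CPM in WT libraries 2 and 3. The Hes1 KO libraries lay close together and below both WT libraries, and WT replicate 2 was highest for 18 of the 29. The group's median log2 fold change was -0.93 without WT replicate 2 and -2.49 without WT replicate 3, and it stayed below 0 under each of the 19 alternatives to the fit, from -2.49 to -0.85. Other lncRNAs in the RefSeq table moved in the same direction, with a median of -1.04. Of 2039 tested, 360 fell (17.7%, against 8.09% of all genes) and 34 rose (1.67%, against 7.44%). Their summed share of counts was 1.34%, 1.54% and 2.86% in Hes1 KO libraries and 5.70% and 3.54% in WT replicates 2 and 3. A list of 10 noncoding RNAs that includes Malat1, Neat1 and Xist had a median log2 fold change of -2.57, with wide differences within it. Malat1 had -2.17 and Neat1 -0.98, while Xist alone of the 10 was higher (2.86), and none of these passed. The lowest values were those of Rpph1 (-4.78) and Rn7sk (-4.02), which did not pass either. Together the 10 took 0.375%, 0.208% and 0.394% of counts in Hes1 KO libraries and 2.12% and 0.232% in WT replicates 2 and 3. WT replicate 2 was thus highest in both lists and in most of these members. The part of either list in the members' values was not tested.

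Bach2os fell together with its partner. It stood at 0.896, 0.314 and 0.983 CPM in Hes1 KO libraries, against 26.2 and 7.06 CPM in WT libraries. The groups did not overlap, and WT replicate 2 was the highest library. Bach2os fell with a log2 fold change of -4.49 (SE 0.73, edgeR adjusted p = 0.0303). Its partner Bach2, which encodes a transcriptional repressor of lymphocyte differentiation, stood at 93.7, 78.6 and 158 CPM in Hes1 KO libraries, against 2160 and 822 CPM in WT libraries. These too did not overlap, with WT replicate 2 again highest, and Bach2 fell (log2 fold change -3.76, SE 0.57, edgeR adjusted p = 0.0300). The log2 ratio of Bach2os to Bach2 counts was -6.68, -7.87 and -7.30 in Hes1 KO libraries and -6.36 and -6.84 in WT libraries, and these ranges overlapped. B cell markers moved with this pair in the 5 libraries compared, with a median log2 fold change of -1.78. Of the 10 markers, 3 fell (30%, against 8.09% of all genes), none rose (against 7.44%), and none was at 0 in every library. WT replicate 1 did not share the high WT level. It had 0 counts of Bach2os and only 2 of Bach2, or 30.2 CPM without TMM scaling, less than any Hes1 KO library. B cell markers took 0.0227% of its counts, against 0.105% to 0.176% in Hes1 KO libraries. When it was included, log2 fold changes of Bach2os and Bach2 were -4.19 and -3.25, and neither passed (edgeR adjusted p = 0.310 and 0.320). The B cell factor Ebf1, 1 of the 10 markers, had 131, 141 and 233 CPM in Hes1 KO libraries and 2301 and 1537 CPM in WT libraries (log2 fold change -3.51, edgeR adjusted p = 0.0294). With all 6 libraries it did not pass (-3.01, edgeR adjusted p = 0.317). Cd79a, another of the 10, did not pass with 5 libraries (log2 fold change -1.76, edgeR adjusted p = 0.0951). The part of B cell content in the fall of Bach2os and Bach2 was not tested.

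In 2 further pairs both genes fell. Slain1os stood at 0.323, 0.449 and 0.315 CPM in Hes1 KO libraries, against 5.82 and 2.23 CPM in WT libraries (log2 fold change -3.46, SE 0.53, edgeR adjusted p = 0.0300). Slain1, which encodes a protein of growing microtubule ends, stood at 12.3, 12.5 and 14 CPM in Hes1 KO libraries, against 23.6 and 34.2 CPM in WT libraries (log2 fold change -1.16, SE 0.24, edgeR adjusted p = 0.0384). Neither gene's groups overlapped, and the highest WT library was replicate 2 for Slain1os and replicate 3 for Slain1. Bcas3os1 stood at 0.358, 0.718 and 0.786 CPM in Hes1 KO libraries, against 4.81 and 2.60 CPM in WT libraries (log2 fold change -2.57, SE 0.51, edgeR adjusted p = 0.0357). Bcas3, linked to cell migration and autophagy, stood at 17.4, 22.5 and 20.3 CPM in Hes1 KO libraries, against 47.7 and 81.6 CPM in WT libraries (log2 fold change -1.69, SE 0.28, edgeR adjusted p = 0.0304). Here as well every Hes1 KO library lay below both WT libraries, and the member's largest value was in WT replicate 2 and the partner's in WT replicate 3.

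The other 6 members that fell from inside a partner did so beside a partner that did not pass. Pard3bos1 had 4, 4 and 2 counts in Hes1 KO libraries, against 68 and 6 in WT libraries, which is 0.143, 0.179 and 0.0786 CPM against 8.60 and 1.12 CPM. All 3 Hes1 KO libraries were near 0, and most WT counts came from replicate 2. Pard3bos1 fell (log2 fold change -5.13, SE 0.88, edgeR adjusted p = 0.0302), while Pard3b, a cell polarity gene, had a log2 fold change of -1.66 (adjusted p = 0.0618). Nckap5los stood at 0.681, 0.628 and 0.236 CPM in Hes1 KO libraries and 7.33 and 1.67 CPM in WT libraries, with no overlap (log2 fold change -3.12, edgeR adjusted p = 0.0473), and Nckap5l at -0.68 (adjusted p = 0.129). Nr6a1os was more even between the WT libraries, at 2.47, 1.48 and 1.97 CPM in Hes1 KO libraries and 11.4 and 8.18 CPM in WT libraries. It fell with a log2 fold change of -2.31 (SE 0.35, edgeR adjusted p = 0.0300). Nr6a1, an orphan nuclear receptor, had 2.01, 1.93 and 2.28 CPM in Hes1 KO libraries and 3.92 and 2.97 CPM in WT libraries (log2 fold change -0.73, adjusted p = 0.161). Counts of the antisense row thus exceeded those of its partner in both WT libraries and in 1 of 3 Hes1 KO libraries, with log2 ratios of 0.30, -0.38 and -0.21 in Hes1 KO libraries and 1.52 and 1.43 in WT libraries.

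Zmiz1os1 stood at 0.538, 0.538 and 0.865 CPM in Hes1 KO libraries, against 2.91 and 1.86 CPM in WT libraries (log2 fold change -1.88, edgeR adjusted p = 0.0467). Zmiz1, a transcriptional coactivator and Notch1 cofactor, stood at 193, 146 and 176 CPM in Hes1 KO libraries and 205 and 194 CPM in WT libraries (log2 fold change -0.22, adjusted p = 0.508). The groups did not overlap in either gene, but the gap in Zmiz1 was only between 193 and 194 CPM. Arhgap27os3 stood at 2.44, 2.06 and 3.30 CPM in Hes1 KO libraries, against 6.45 and 8.18 CPM in WT libraries (log2 fold change -1.49, edgeR adjusted p = 0.0445). Arhgap27 had a log2 fold change of 0.34 (adjusted p = 0.332), in the other direction. Ino80dos stood at 5.23, 6.82 and 5.74 CPM in Hes1 KO libraries, against 14 and 11.9 CPM in WT libraries. Ino80dos fell (log2 fold change -1.13, SE 0.26, edgeR adjusted p = 0.0448), and Ino80d, a subunit of the INO80 chromatin remodeller, had a nearby log2 fold change of -1.01 that did not pass (adjusted p = 0.0858). The 1 member with a near start that fell was Phtf1os, at 0.430, 0.314 and 0.197 CPM in Hes1 KO libraries and 4.30 and 0.930 CPM in WT libraries (log2 fold change -3.04, edgeR adjusted p = 0.0452). Its groups did not overlap and WT replicate 2 was highest, while Phtf1 had a log2 fold change of 0.01 (adjusted p = 0.974).

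**Figure D2:**
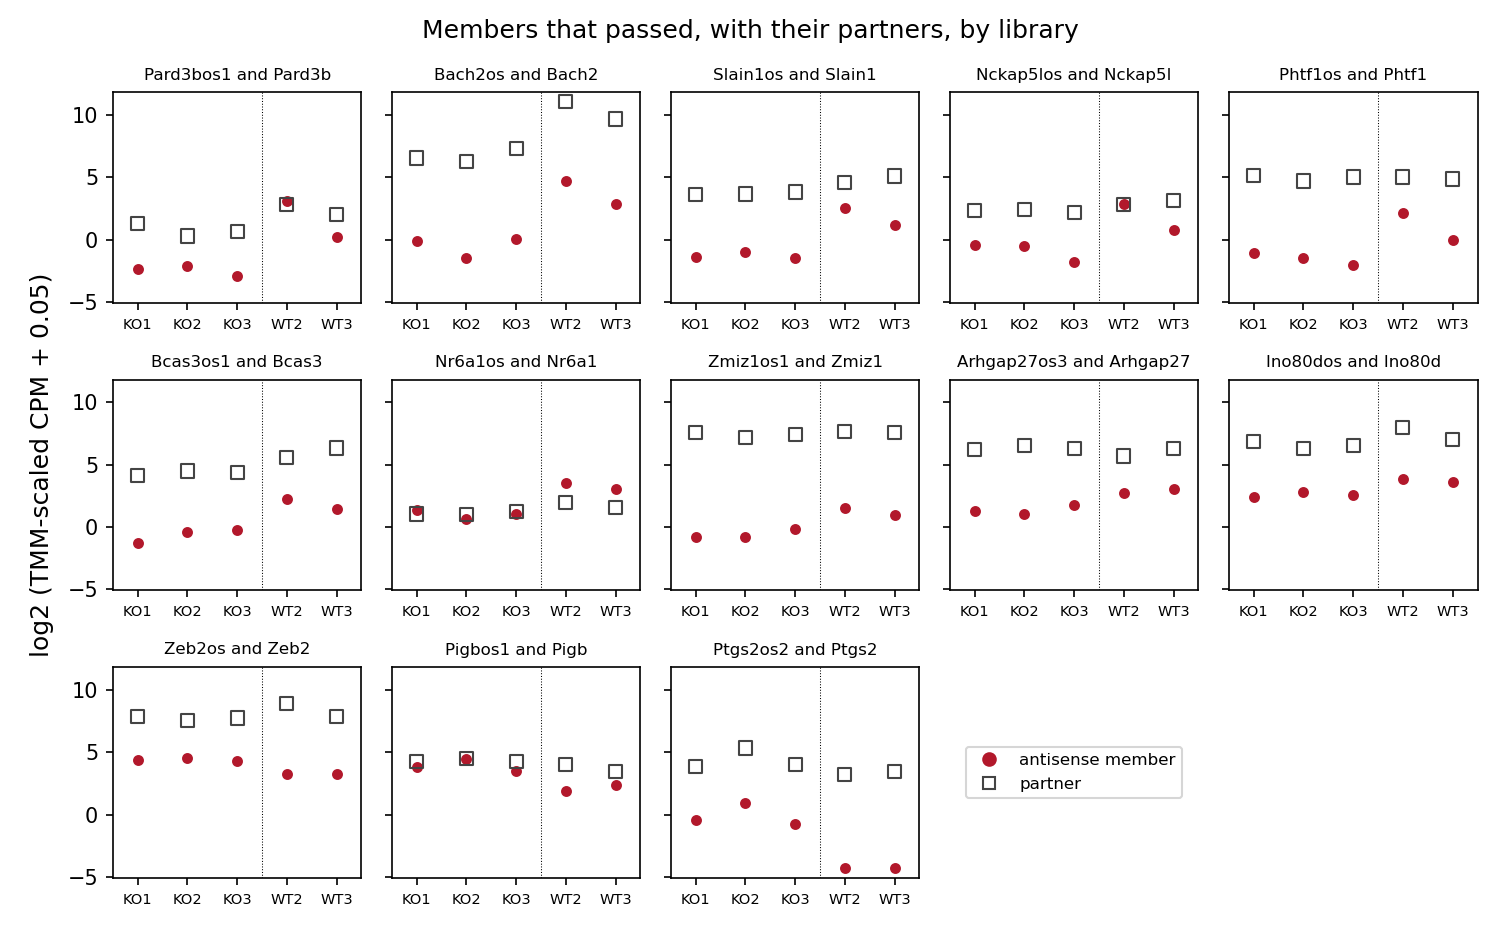
Level of the 13 members that passed (filled circles) and of their partners (open squares) in each library, as log2 of scaled CPM with 0.05 added (y axis), with Hes1 KO libraries left of the dotted line and WT libraries right of it. In Bach2os, Slain1os and Bcas3os1 both symbols are higher in the WT libraries, while Phtf1 and Zmiz1 stay nearly level as their members differ.

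The 3 members that rose belong to 3 different position groups. Ptgs2os2, also known as lincRNA-Cox2, is induced by Toll-like receptor signalling in mouse macrophages and is a neighbour of Ptgs2, the cyclooxygenase-2 gene. It had 19, 41 and 14 counts in Hes1 KO libraries and 0 counts in both WT libraries compared. Ptgs2os2 thus became a member through Hes1 KO counts alone, so its direction is no independent support. The mean level of Ptgs2os2 was at least 4.33-fold higher in Hes1 KO libraries, set against 3 counts summed over both WT libraries as a floor (edgeR adjusted p = 0.0461). Ptgs2 stood at 14.6, 40.5 and 15.8 CPM in Hes1 KO libraries, against 9.36 and 10.8 CPM in WT libraries, with Hes1 KO replicate 2 the highest for both genes. The groups of Ptgs2 did not overlap, yet it did not pass (log2 fold change 1.23, SE 0.51, edgeR adjusted p = 0.133). Macrophage and monocyte markers moved with Ptgs2os2. Of 9 listed, 7 rose (77.8%, against 7.44% of all genes), none fell and none was at 0 in every library. Together they took 1.12%, 2.10% and 1.20% of counts in Hes1 KO libraries and 0.530%, 0.225% and 0.0202% in WT replicates 1 to 3. Dendritic and neutrophil markers were higher as well: 3 of 5 (60%) and 1 of 11 (9.09%) rose, and none fell. Median log2 fold changes were 2.90 for macrophage and monocyte, 1.02 for dendritic and 3.20 for neutrophil markers. The part of any of these lists in the rise of Ptgs2os2 was not tested.

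Zeb2os, a natural antisense of the transcription factor gene Zeb2 that in human cells favours retention of an intron in the ZEB2 message, was the only member starting inside its partner that rose. It stood at 21.2, 23.1 and 19.6 CPM in Hes1 KO libraries, against 9.23 and 9.67 CPM in WT libraries. The libraries of each group lay close together, and Zeb2os rose (log2 fold change 1.17, SE 0.22, edgeR adjusted p = 0.0330). Zeb2 stood at 235, 187 and 215 CPM in Hes1 KO libraries, against 474 and 230 CPM in WT libraries. Its groups overlapped, and its log2 fold change of -0.73 (adjusted p = 0.181) had the opposite sign. The log2 ratio of Zeb2os to Zeb2 counts was therefore higher in every Hes1 KO library, at -3.47, -3.02 and -3.45, than in WT libraries, at -5.67 and -4.56.

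Pigbos1 encodes a small protein of the mitochondrial outer membrane and starts beside Pigb, an enzyme of glycosylphosphatidylinositol anchor synthesis. It stood at 13.8, 21.4 and 11.5 CPM in Hes1 KO libraries, against 3.67 and 5.21 CPM in WT libraries. The groups did not overlap, and Pigbos1 rose (log2 fold change 1.81, SE 0.38, edgeR adjusted p = 0.0391). Pigb stood at 19.5, 22.1 and 19 CPM in Hes1 KO libraries, against 15.9 and 10.8 CPM in WT libraries, also without overlap, but did not pass (log2 fold change 0.59, SE 0.26, adjusted p = 0.145). The log2 ratio of Pigbos1 to Pigb counts was -0.50, -0.04 and -0.73 in Hes1 KO libraries and -2.10 and -1.04 in WT libraries.

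The other 5 protein-coding members did not pass. Cdiptos stood at 3.01, 4.08 and 2.79 CPM in Hes1 KO libraries and 1.52 and 0.186 CPM in WT libraries (log2 fold change 1.90, edgeR adjusted p = 0.141, and 0.36 with all 6 libraries), and Cebpzos at 8.42, 12.2 and 7.39 CPM in Hes1 KO libraries and 4.43 and 4.09 CPM in WT libraries (1.13, adjusted p = 0.0683). In both, the groups did not overlap. Ccpg1os was likewise higher in each Hes1 KO library (0.68, adjusted p = 0.273). Wdr83os, which encodes the Asterix protein of a membrane-protein chaperone complex in the endoplasmic reticulum, stood at 20.2, 23.4 and 21.2 CPM in Hes1 KO libraries and 9.74 and 21 CPM in WT libraries, with overlap (0.49, and -0.64 with all 6 libraries). Slc7a6os, with 25.6, 26.6 and 26.3 CPM in Hes1 KO libraries and 25.4 and 43.9 CPM in WT libraries, was the only one of the 6 with a negative value (-0.41, adjusted p = 0.305). The median of the 6 stayed above 0 under the 19 alternatives, from 0.54 to 1.32.

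Members that start within 1 kb of the partner's start were mixed. Ttc39aos1 had the lowest log2 fold change among them, -3.66 (edgeR adjusted p = 0.0636), from 0.251, 0.449 and 0.668 CPM in Hes1 KO libraries and 0.759 and 11 CPM in WT libraries. Its partner Ttc39a fell (log2 fold change -4.43, SE 0.96, edgeR adjusted p = 0.0406), at 0.717, 0.404 and 0.983 CPM in Hes1 KO libraries and 2.66 and 28.1 CPM in WT libraries. In both genes WT replicate 3 was far above every other library. Brip1os stood at 106, 69.6 and 85.2 CPM in Hes1 KO libraries and 69.9 and 31.4 CPM in WT libraries, and the groups overlapped (log2 fold change 0.78, adjusted p = 0.189, and -0.11 with all 6 libraries). Junos, facing the AP-1 subunit gene Jun, stood at 12.1, 14.1 and 12.6 CPM in Hes1 KO libraries, between its WT values of 23.9 and 1.86 CPM, so its log2 fold change of 0.00 hid WT libraries that differed from each other (SE 0.88). Cep83os varied little, at 10.9, 10.3 and 11.8 CPM in Hes1 KO libraries and 8.85 and 13.9 CPM in WT libraries. Median log2 fold changes under the 19 alternatives lay on both sides of 0, from -0.58 to 0.34.

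Members that start outside the partner and more than 1 kb away follow. Oip5os1, known as Cyrano, is a conserved noncoding RNA that triggers destruction of the microRNA miR-7. It stood at 42.5, 32.5 and 33.9 CPM in Hes1 KO libraries, against 41.0 and 316 CPM in WT libraries. WT replicate 3, in which the 10 most abundant genes took 50.03% of counts, stood apart, and the groups overlapped (log2 fold change -2.30, SE 0.74, edgeR adjusted p = 0.0824). Rab10os stood at 9.75, 11.1 and 9.32 CPM in Hes1 KO libraries and 12.8 and 16.0 CPM in WT libraries. Its groups did not overlap, but it did not pass (log2 fold change -0.51, edgeR adjusted p = 0.169). Tnfsf13os had 37, 41 and 41 counts in Hes1 KO libraries and 3, 5 and 0 in WT replicates 1 to 3. The 3 counts in WT replicate 1 are worth 45.3 CPM, above the other 5 libraries, and the log2 fold change was 2.2 without that library (adjusted p = 0.208) and -1.12 with all 6 (adjusted p = 0.852). Its partner Tnfsf13, which encodes the B cell survival factor APRIL, had 116, 89 and 96 counts in Hes1 KO libraries and 0, 1 and 1 in WT replicates 1 to 3, and rose (log2 fold change 4.64, SE 0.43, edgeR adjusted p = 0.0294).

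Of 63 partners tested, 8 fell and 4 rose (12.7% and 6.35%, against backgrounds of 8.09% and 7.44%), and the median log2 fold change was -0.22, with 32 lower and 31 higher. Plxna4, Rab26 and Slc36a3 did not pass the filter. Besides Tnfsf13, the partners that rose were Rbfa, a mitochondrial ribosome assembly factor (1.46), Prkag2, a regulatory subunit of AMP-activated kinase (1.14), and Frmd8 (1.09), with edgeR adjusted p of 0.0415, 0.0304 and 0.0338. Besides Bach2, Slain1, Bcas3 and Ttc39a, those that fell were Lpp, a focal adhesion protein (-1.59), Peak1, a pseudokinase (-1.37), Rptor, the scaffold of mTORC1 (-1.01), and Zfp335 (-0.73), with edgeR adjusted p of 0.0303, 0.0445, 0.0368 and 0.0495. For each of these 7, every Hes1 KO library lay outside the range of WT replicates 2 and 3. In WT replicate 1, Frmd8 had 19 counts (287 CPM without TMM scaling) and Prkag2 had 9 (136 CPM), above every Hes1 KO library, and with all 6 libraries their log2 fold changes were 0.04 and 0.20. Peak1os and Rptoros, which start inside partners that fell, had log2 fold changes of -3.36 and -3.22 and did not pass (adjusted p = 0.0714 and 0.0566). Lppos, with a near start, had -0.37 (adjusted p = 0.721).

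Counted by pair, member and partner seldom passed together. Among 63 pairs with both genes tested, both fell in 3, both rose in none, and no pair had calls of opposite sign. In 7 pairs the member alone fell, in 3 it alone rose, in 5 the partner alone fell, in 4 it alone rose, and in 41 neither passed. By sign alone, both were lower in 26 pairs and both higher in 14. The member was lower and the partner higher in 18, and the reverse held in 5. Pearson's r between the log2 fold changes of member and partner across the 63 pairs was 0.51, given as a description, since all pairs come from the same 5 libraries.

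**Figure D3:**
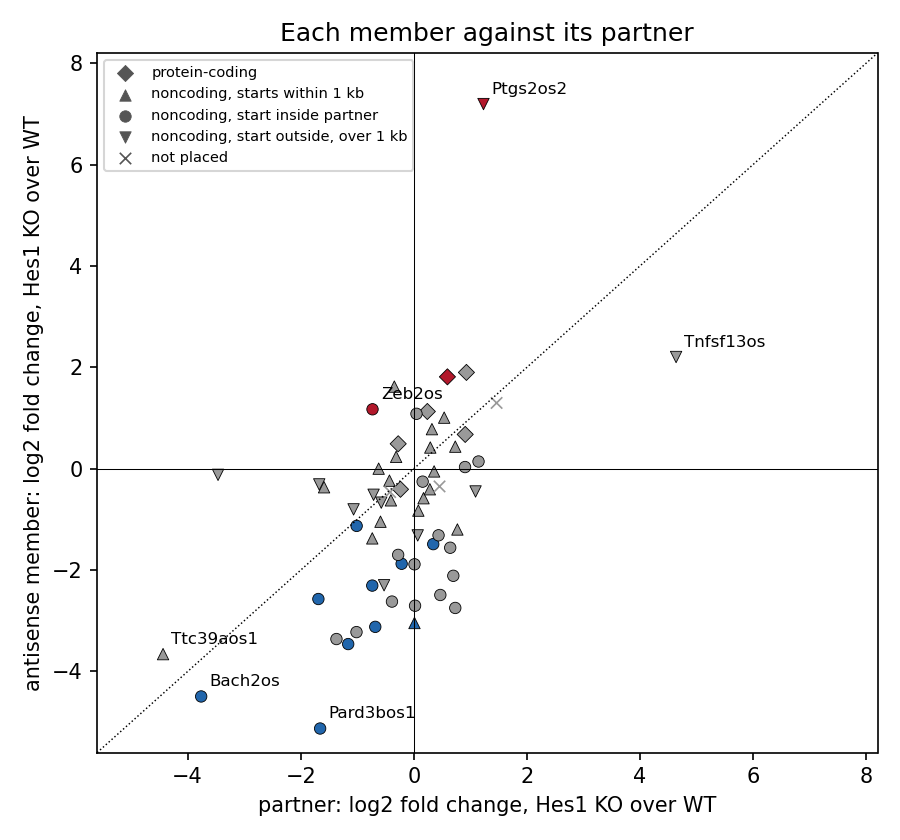
Log2 fold change (Hes1 KO over WT) of each antisense member (y axis) against that of its partner (x axis) for 63 pairs, with members that rose in red, those that fell in blue and those that did not pass in grey, and marker shapes for the position groups. Circles, for members that start inside the partner, lie mostly below the dotted line of equal change.

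The ratio of member to partner counts within a library does not depend on how libraries are scaled. With 0.5 counts added to each, the median log2 ratio over 63 pairs was -4.90, -4.67 and -4.79 in Hes1 KO libraries, against -3.91 and -4.15 in WT libraries. The Hes1 KO libraries lay within a narrow range below both WT libraries. The median difference between group means was -0.50, with 42 pairs lower in Hes1 KO libraries and 21 higher. It was -0.41 over the 29 pairs whose member had at least 10 counts in every library, and -0.66 without Hes1 KO replicate 2. For the 25 pairs in which the member starts inside the partner, the median ratio was -5.53, -5.92 and -5.72 in Hes1 KO libraries and -3.75 and -4.72 in WT libraries, and it was lower in Hes1 KO libraries in 23 of them (median difference -1.63). In the 19 pairs with near starts the median difference was -0.40, in the 10 pairs that start elsewhere 0.08, and in the 6 protein-coding pairs 0.85. With 3 libraries against 2, no permutation test of these differences could go below p = 0.1, and none was made.

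**Figure D4:**
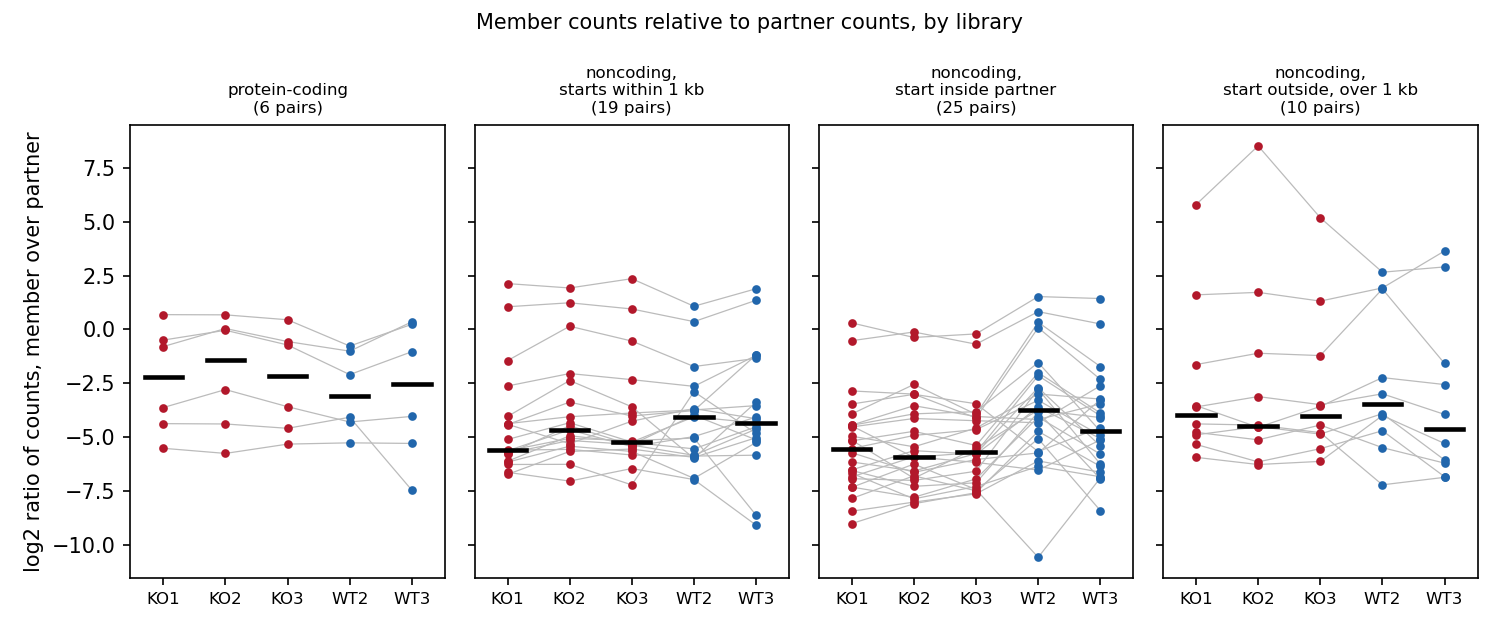
Log2 ratio of member to partner counts (y axis, 0.5 added to each) in each library, 1 line for each pair, with medians as black bars and 1 panel for each position group, Hes1 KO libraries in red left of WT libraries in blue. Where the member starts inside the partner, the medians are -5.53, -5.92 and -5.72 in Hes1 KO libraries and -3.75 and -4.72 in WT libraries.

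The threshold of 50 counts separated rows with like values. Just inside it, Ube4bos3, Tbc1d22bos, Bloc1s6os and Stamos had 55, 52, 51 and 50 counts. Just outside, Cd55os, Brd3os, Scpep1os and Zfp85os had 49, 48, 48 and 46. Ube4bos3 had 10, 12 and 11 counts in Hes1 KO libraries and 21 and 1 in WT replicates 2 and 3, and Cd55os had 9, 12 and 7 in Hes1 KO libraries and 16 and 5 in WT replicates 2 and 3. Of the 92 rows with a partner and under 50 counts, 7 passed the filter on low counts and none of these passed the test, with a median log2 fold change of -0.19.

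Other noncoding genes were counted for comparison. Of 31 listed antisense and long noncoding RNAs that are well known by name, 25 were in the table and 17 were tested. Of these, 2 rose and 1 fell (17.6% in either direction, against 15.5% of all genes). Kcnq1ot1, the imprinted antisense of Kcnq1, stood at 67.9, 37.0 and 60.6 CPM in Hes1 KO libraries, against 340 and 129 CPM in WT libraries, without overlap, and fell (log2 fold change -2.09, SE 0.47, edgeR adjusted p = 0.0423). Morrbid, a noncoding RNA that governs the lifespan of short-lived myeloid cells, stood at 18.2, 35.2 and 16.3 CPM in Hes1 KO libraries, against 5.18 and 1.49 CPM in WT libraries, and rose (2.79, edgeR adjusted p = 0.0464). Mirt2 had 34, 197 and 59 counts in Hes1 KO libraries and 1 in each of WT replicates 2 and 3, and rose (4.69, edgeR adjusted p = 0.0353). Of the 10 noncoding RNAs listed with Malat1, Neat1 and Xist, Kcnq1ot1 alone passed (10%, against 15.5% of all genes). Predicted genes and RIKEN clones, whose symbols begin with Gm or end in Rik, fell in 390 and rose in 72 of 2584 tested, with a median of -0.78. That is 15.1% and 2.79%, against 8.09% and 7.44% of all genes.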

How the data were processed

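RNA was sequenced from 3 libraries labelled Hes1 KO and 3 labelled WT, with groups and replicate numbers from the sample titles. The authors deposited whole-number read counts per gene symbol. Per the submitters' processing notes, the genome build was GRCm39 and the tools included limma and edgeR. The name of the deposited table points to featureCounts. The kit selects polyadenylated RNA and keeps the strand, per the labels' protocols. The sources used here do not give the aligner, the annotation or the strand setting of the counting. CPM values have no adjustment for length, so levels are not compared between genes, apart from ratios of counts within a library and the choice of the 8 members of highest mean CPM to name.

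Here the counts of 5 libraries, without WT replicate 1, were filtered with filterByExpr (16190 genes left), scaled by TMM and tested with edgeR 4.0.16 in R 4.3.3, with the quasi-likelihood F test and Benjamini-Hochberg adjustment over all genes and a threshold of 0.05. Standard errors were taken from the log2 fold change and its F statistic. Scaled CPM divides counts by library size times the TMM factor, which was 0.445 in WT replicate 3 and 1.05 to 1.36 in the others. limma 3.58.1 and DESeq2 1.42.0 served as alternatives. The scripts were tested on simulated data.

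Members, gene lists and position groups were chosen with earlier results of these data known. Positions came from GENCODE M21 (GRCm38) by symbol, and no coordinates on GRCm39 were used. The genes named are Hes1, up to 12 members in each direction among those that passed, their partners, pairs in which both passed, the 8 members of highest mean CPM, 4 rows on either side of the 50-count threshold and up to 4 other noncoding genes. Other members were named as examples after their values were seen.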

Additional observations from a re-analysis of the deposited data

Results flagged for a closer look

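WT replicate 1 was left out of the main comparison of 5 libraries, yet 2 members had more than 3 counts in it. Brip1os had 21 counts of 66167, or 317 CPM without TMM scaling (Wilson 95% interval 208 to 485), against 14 to 134 CPM in the other 5 libraries. Wdr83os had 9 counts, or 136 CPM (71.6 to 259), against 9.33 to 26.2 CPM in the others. The intervals cover counting error only. Of the other 65 members, 9 had 1 to 3 counts in this library and the rest had none. For 4 of these the interval also lay above the other libraries: Tnfsf13os at 45.3 CPM (15.4 to 133) against at most 1.99 CPM, Cdiptos and Ppifos each at 30.2 CPM (8.29 to 110) against at most 4.30 and 6.71 CPM, and Taco1os at 15.1 CPM (2.67 to 85.6) against at most 1.65 CPM. These rest on very few counts, since a single count is worth 15.1 CPM there.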

How the results depend on the processing

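Calls depended on which libraries entered and on the model, while the direction of most named genes did not. The counts of members that fell and rose were 10 and 3. Both were 0 with all 6 libraries, with library size alone, at an adjusted p under 0.01, with the replicate block and, chosen after the data were seen, with all 6 libraries under limma-voom or with a replicate block. Members that fell numbered 5 with no filter, 6 with a stricter filter, 23 with DESeq2, 4 with limma-voom, 5 with legacy dispersions, 1 with counts thinned to WT replicate 2, and 4 among members with 200 or more counts. Shares called in either direction differed between these settings for all genes too. Members had 10.4% with no filter (7.09% of all genes), 17.4% with a stricter filter (15.8%) and 39.4% with DESeq2 (30.9%). They had 6.06% with limma-voom (8.89%), 10.6% with legacy dispersions (10.6%) and 2.56% with thinned counts (7.68%). Members that rose numbered 0 with limma-voom and with thinned counts. Partners that fell (8) and rose (4) were 0 and 0 in the same settings in which both member counts were 0. Partners that fell numbered 4 with no filter, 14 with DESeq2, 4 with limma-voom and 4 with thinned counts, which left 1 that rose. DESeq2 on all 6 libraries, also chosen after the data were seen, gave 4 members and 4 partners that fell, and 0 members and 1 partner that rose. That is 7.02% of members called, against 5.37% of all genes. Leaving out each library in turn gave 0 to 21 members that fell and 0 to 6 that rose, and 0 to 13 partners that fell and 0 to 10 that rose. The log2 fold change of Hes1 was -2.12 with all 6 libraries and -2.33 with the replicate block, neither passing, and -2.85 to -2.11 with each library left out. The median log2 ratio of member to partner counts (-0.50) was -1.05 with all 6 libraries and -0.66 to -0.38 with each library left out. WT replicate 1 detected only 11 members, and its ratios for the others rest on the 0.5 counts added. The value of -1.05 therefore cannot be read as a larger difference. The log2 fold change of Phtf1, near 0, changed sign to -0.0607 with RLE size factors, -0.20 with upper quartile scaling, -0.0702 with a stricter filter, -0.0618 with DESeq2, -0.0054 with limma-voom, -0.0843 with the replicate block, -0.19 with thinned counts and ranged from -0.111 to 0.0997 with each library left out. That of Zmiz1 was 0.17 with library size alone, a scaling that set the median of all genes at 0.44, against -0.19 with upper quartile scaling. For the 13 members that passed, 89 of 216 settings kept the call, so most settings ended it. Over these members, their partners and each setting, 291 kept the direction and the side of the threshold, 154 kept the direction and no longer passed, 7 newly passed and 11 changed sign. The cause of these changes was not tested. Replicate numbers were not taken as pairs in the main fit, as the labels give them no shared source. Deviations of same-numbered Hes1 KO and WT libraries had correlations of 0.153, 0.00704 and 0.244. Hes1 KO replicates 1 and 3 each correlated best with the WT library of the same number, and Hes1 KO replicate 2 with WT replicate 1 (0.0218). Whether same-numbered libraries share a source was not tested. Xist had 27033, 233 and 20647 counts in Hes1 KO replicates 1 to 3 and 136, 18 and 871 in WT replicates 1 to 3, lowest in replicate 2 of each group. Depth limits members of low count, since 1 count is worth 0.172 CPM in WT replicate 2 and 15.1 CPM in WT replicate 1.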
